A study of Homo sapiens with 12 samples.

Results

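The G1 cyclins, their kinases and the inhibitors of those kinases were examined in A375 cells, a long-established melanoma line of human origin. The set has 10 genes, taken from the count table by symbol: the D-type cyclins CCND1, CCND2 and CCND3, the kinases CDK4 and CDK6, the E-type cyclins CCNE1 and CCNE2, and the inhibitors CDKN1B, CDKN1C and CDKN2C. All 10 were present among the 56609 symbols of the table. Of these, 9 were among the 21698 genes with enough counts to be tested, and CCND2 was not.

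RNA was sequenced from wild-type A375 cells and from A375 cells with a MAPKAPK2 knockout, each kept for 48 h in 500 nM JQ1 or without it. The treatment field gives DMSO, a solvent, for the libraries without JQ1, while their titles call them untreated; they are called DMSO here, and which of the labels holds is not settled by the sources used here. There were 4 groups of 3 libraries, a DMSO and a JQ1 group for each genotype. JQ1 is an inhibitor of the BET bromodomain proteins, which bind acetylated chromatin, and MAPKAPK2 encodes MK2, a stress-activated kinase downstream of p38. The labels do not say whether the knockout line is 1 clone, nor whether replicates were grown separately, so p-values measure the spread between these libraries, which may be technical.

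D-type cyclins bind and activate CDK4 and CDK6, and E-type cyclins activate CDK2. Both kinds of kinase phosphorylate the retinoblastoma protein, which releases E2F factors and lets a cell pass from G1 into S phase. Inhibitors of the INK4 family (CDKN2C encodes p18) bind CDK4 and CDK6, while those of the CIP/KIP family (CDKN1B encodes p27, CDKN1C encodes p57) bind whole cyclin-kinase complexes. In melanoma this step is a main output of the MAPK pathway, which drives CCND1 transcription.

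The libraries held from 25316899 to 34594295 estimated counts. MAPKAPK2, the targeted gene, was at 89.6 ± 2.20 CPM (counts per 1000000) in DMSO and 117 ± 4.31 in JQ1 for wild type, and at 12.4 ± 1.15 and 14.4 ± 1.61 for the knockout (SD, n = 3). Of 10 melanocytic and melanoma markers, all 10 had a count in some library and 7 had enough counts to be tested. The 10 summed to between 683.6 and 772.1 CPM in the DMSO libraries and between 774.9 and 1001 in the JQ1 libraries. In wild-type DMSO most of the sum was SOX10 (436.7 CPM) and PRAME (169.8). The pigment markers PMEL, MLANA, TYR, DCT and TYRP1 were at 0.513, 0.78, 0.0809, 0.233 and 0.126 CPM there, and TYR was at 0 in wild-type JQ1. The 11 immune, epithelial and endothelial markers summed to between 3.90 and 5.66 CPM in DMSO and between 1.70 and 3.35 in JQ1, and CDH1 was at 0 in every library. The part of these shifts in the results was not tested. Replicate 3 of knockout JQ1 differed from both of its replicates more than any other replicate pair did, so the members' fold changes with JQ1 in the knockout are given also without it. Without it edgeR again called 0 of the 9 tested members between genotypes under JQ1.

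CPM are counts per 1000000 of the library after scaling with edgeR's TMM factors. A gene was called where edgeR's quasi-likelihood test gave an adjusted p (Benjamini-Hochberg over the 21698 genes) under 0.05. Fold changes are on the log2 scale, each with its standard error (SE). With JQ1 against DMSO, the libraries of the groups did not overlap for 50.4% of tested genes in wild type and 42.3% in knockout. Between genotypes that share was 29.6% under DMSO and 23.1% under JQ1.

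With JQ1 the transcripts of the D-type cyclins CCND1 and CCND3 and of the inhibitor CDKN1C rose in both genotypes and those of CDK6 fell, while CDK4 and CDKN1B were not called in either. In wild-type cells 5 of the 9 tested members were called, with CCND1, CCND3, CCNE1 and CDKN1C higher and CDK6 lower. Across all tested genes 33.1% were called in that comparison, 3665 higher and 3522 lower; scaling on library totals alone left 30.0% of the called genes higher. In knockout cells 6 of 9 were called, with CCND1, CCND3, CCNE2, CDKN1C and CDKN2C higher and CDK6 lower, against 34.4% of all genes (3616 higher, 3856 lower, or 31.4% of the called higher with library totals). The median log2 fold change of the 9 was 0.05 in wild type and 0.30 in knockout, beside -0.03 and -0.0035 over all tested genes. These 2 comparisons share no library.

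**Figure D1:**
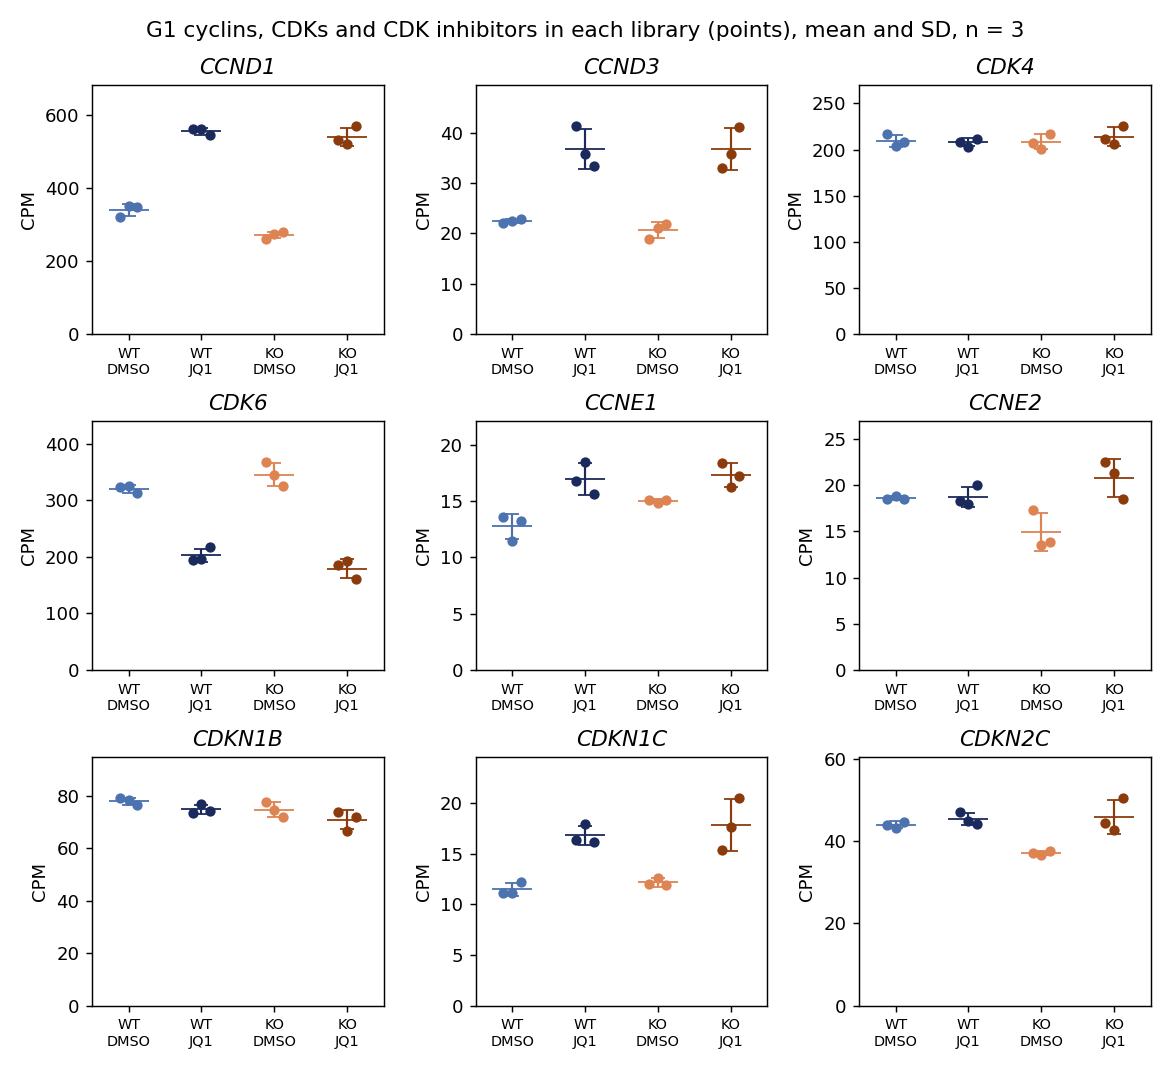
Level of each tested member in every library. Each panel is 1 gene, the y axis is CPM from 0, points are single libraries, and bars show the mean and SD of 3. CCND1, CCND3 and CDKN1C are higher in both JQ1 groups than in either DMSO group, CDK6 is lower in both, and the 12 CDK4 points lie between 200.9 and 225.1 CPM.

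The D-type cyclin CCND1 (ENSG00000110092, chr11:69641087-69654474, plus strand, GRCh38) had from 7917 to 18390 counts per library. It was at 320.3, 350.2 and 346.5 CPM in wild-type DMSO and at 560.4, 559.5 and 544.0 CPM in wild-type JQ1. The knockout libraries were at 260.2, 274.5 and 277.9 CPM in DMSO and at 530.0, 520.3 and 567.6 in JQ1. The JQ1 libraries of both genotypes were all above the DMSO libraries, the JQ1 groups overlapped each other, and the knockout DMSO libraries lay below every wild-type DMSO library.

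By edgeR, CCND1 rose with JQ1 by 0.71 in wild type (SE 0.05, adjusted p 1.56e-07), a fold of 1.64. In knockout cells it rose by 0.99 (SE 0.05, adjusted p 4.26e-09), a fold of 1.99. Without replicate 3 of knockout JQ1 the latter was 0.96. Under DMSO the knockout was lower than wild type by -0.32 (SE 0.05, adjusted p 0.00116), and under JQ1 the difference was -0.04 with a 95% interval from -0.15 to 0.07 (adjusted p 0.740, edgeR). The difference of the JQ1 responses was 0.28 (SE 0.07), which edgeR did not call (adjusted p 0.243) and DESeq2 did (0.27, adjusted p 0.0359).

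CCND3 (ENSG00000112576, chr6:41934933-42050357, minus strand), another D-type cyclin, was at 22.1, 22.4 and 22.9 CPM in wild-type DMSO and at 41.2, 35.7 and 33.4 in wild-type JQ1. In the knockout the values were 18.9, 21.15 and 21.8 CPM with DMSO and 32.9, 35.8 and 41.15 with JQ1. All 6 JQ1 libraries stood above all 6 DMSO libraries, and the JQ1 groups overlapped. The rise was 0.71 in wild type (SE 0.10, adjusted p 4.57e-05) and 0.83 in knockout (SE 0.10, adjusted p 1.04e-05) by edgeR, and 0.74 in knockout without replicate 3 of knockout JQ1.

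CCND2 (ENSG00000118971, chr12:4273772-4305350, plus strand), the remaining D-type cyclin, had 0 counts in 9 libraries and 1 count in the other 3. A count of 0 allows up to 3 counts, which is 0.0825 to 0.122 CPM depending on the library and covers counting error only. No comparison was made for it.

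Levels of different members were compared with each other only after division by the length of the principal transcript in GENCODE release 29. On that scale, CPM per kilobase, CCND1 was at 78.7 ± 3.78 and CCND3 at 10.8 ± 0.203 in wild-type DMSO (SD, n = 3). CCND1 thus held 88.0% ± 0.398 of the D-type cyclin transcripts there and 88.0% ± 1.02 with JQ1. In the knockout it held 86.4% ± 0.471 and 87.7% ± 0.837. The CCND1 to CCND3 ratio in wild-type JQ1 was 1.00 times that in wild-type DMSO, with overlapping libraries (two-sided exact permutation test, p = 0.9). In knockout DMSO it was 0.871 times that in wild-type DMSO, and in knockout JQ1 it was 1.12 times that in knockout DMSO. Neither of these overlapped, and each gave p = 0.1 in the same exact test, the smallest that 3 against 3 libraries can give, and 0.171 adjusted over the 12 ratio comparisons made. Both share the knockout DMSO libraries.

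CDK4 and CDK6 are the catalytic partners of the D-type cyclins. CDK4 (ENSG00000135446, chr12:57747727-57756013, minus strand) was not called in any comparison. Wild-type libraries were at 216.4, 204.2 and 208.1 CPM in DMSO and at 208.5, 203.3 and 212.0 in JQ1. Knockout libraries were at 207.2, 200.9 and 217.0 CPM in DMSO and at 211.7, 205.7 and 225.1 in JQ1. All 4 groups overlapped. The log2 difference with JQ1 was -0.01 in wild type (95% interval -0.12 to 0.10, adjusted p 0.897) and 0.04 in knockout (-0.07 to 0.15, adjusted p 0.609, edgeR), or 0.0040 without replicate 3 of knockout JQ1.

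With scaling on library totals alone, which moved the median of all tested genes by -0.13 in wild type and by -0.12 in knockout, the CDK4 difference was -0.14 in wild type (adjusted p 0.0496, edgeR) and -0.08 in knockout. CDK4 overlaps TSPAN31 and MARCH9 on the opposite strand, which had 323 to 557 and 380 to 743 counts per library. Whether the counting used the strand is not given in the sources used here.

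CDK6 (ENSG00000105810, chr7:92604921-92836594, minus strand) fell with JQ1. It was at 323.9, 325.1 and 312.4 CPM in wild-type DMSO and at 195.0, 196.0 and 216.7 in wild-type JQ1. Knockout cells had 367.3, 344.2 and 325.3 CPM in DMSO and 185.2, 192.2 and 160.9 in JQ1. On this scale no group overlapped another. The order from high to low was knockout then wild type under DMSO, followed by wild type then knockout under JQ1. The gaps between genotypes were small, 325.3 against 325.1 CPM under DMSO and 195.0 against 192.2 under JQ1. Between genotypes 29.6% of all tested genes lay apart in this way under DMSO and 23.1% under JQ1.

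In wild-type cells CDK6 fell by 0.66 (SE 0.07, adjusted p 5.23e-06), to 0.632 of its DMSO level, by edgeR. In knockout cells it fell by 0.95 (SE 0.07, adjusted p 1.31e-07), to 0.519, and by 0.87 without replicate 3 of knockout JQ1. The small separations between genotypes did not pass edgeR's threshold: 0.11 under DMSO (95% interval -0.04 to 0.26, adjusted p 0.439) and -0.18 under JQ1 (-0.33 to -0.03, adjusted p 0.161). With the authors' normalized signal and limma the difference under DMSO was 0.23 (adjusted p 0.0183). With that signal CDK6 fell with JQ1 by 0.51 in wild type and by 0.88 in knockout. The difference of the JQ1 responses was -0.28 (SE 0.10, adjusted p 0.440, edgeR). Without replicate 3 of knockout JQ1 it was -0.21 (adjusted p 0.265, edgeR). The difference between genotypes under JQ1 was then -0.10 (adjusted p 0.323, edgeR).

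Per kilobase, CDK4 was at 101 ± 3.01 and CDK6 at 27.6 ± 0.604 CPM in wild-type DMSO (SD, n = 3). CDK6 made up 21.5% ± 0.590 of the summed CDK4 and CDK6 transcripts in wild-type DMSO and 14.8% ± 0.573 in wild-type JQ1. These shares use the same transcript length in every group. On the authors' normalized signal, CDK6 in wild-type JQ1 was at 0.701 of its wild-type DMSO level, and in knockout JQ1 at 0.637. On the CPM used here those levels were 0.632 and 0.560. Shares were not computed on the authors' signal. In knockout cells its share was 22.9% ± 1.54 in DMSO and 13.1% ± 1.54 in JQ1. The CDK6 to CDK4 ratio with JQ1 was 0.636 of its DMSO value in wild type and 0.504 in knockout, with no overlap of libraries in either. Each gave p = 0.1 in a two-sided exact permutation test (adjusted 0.171). Relative to the wild-type DMSO mean, the knockout JQ1 libraries were at 0.572, 0.611 and 0.467, lowest in replicate 3.

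**Figure D2:**
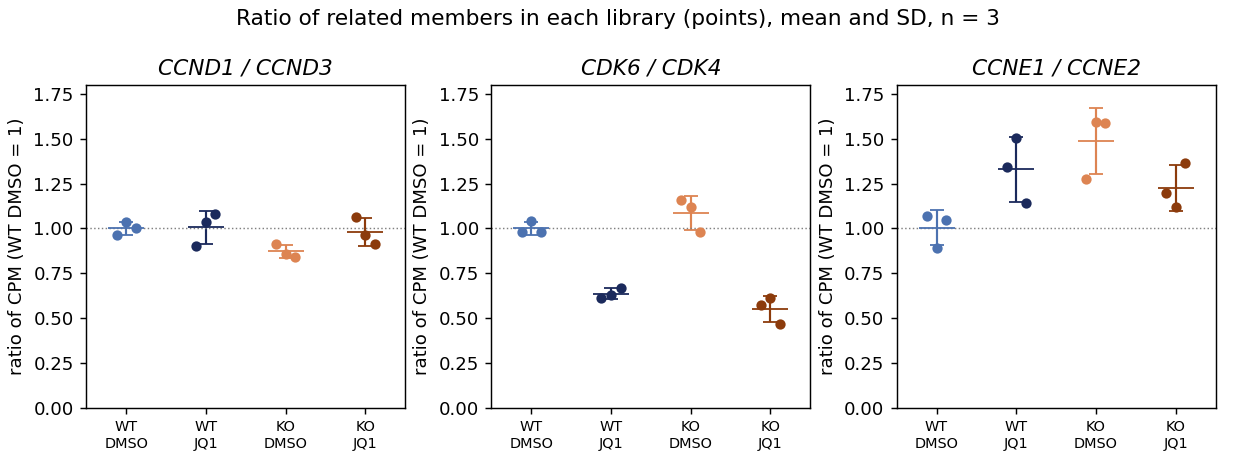
Ratio of the CPM of 2 related members in each library, set to 1 at the wild-type DMSO mean; points are libraries and bars the mean and SD of 3. The CDK6 to CDK4 ratio is lower in both JQ1 groups, while the CCND1 to CCND3 ratio of wild-type JQ1 overlaps that of wild-type DMSO and CCNE1 to CCNE2 is highest in knockout DMSO.

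The start regions of this kinase pair are shown because their transcripts moved differently. The sequences are RefSeq's (GRCh38.p14), 5′ to 3′ on the gene's strand, with positions counted from the RefSeq start as +1 and the E-box CACGTG in capitals. The CDK4 stretch is chr12:57752499-57752528 (minus strand, positions -218 to -189), which runs into the first exon of a CDK4 transcript with an earlier start in GENCODE. It was cut to just span the E-boxes shown, so the stretches printed cannot be compared in E-box content. The CDK6 stretch is chr7:92836595-92836823 (minus strand, positions -250 to -22), upstream of every annotated CDK6 exon and within an intron of the antisense transcript AC002454.1.
CDK4: gtCACGTGtgatagcaacagatCACGTGgc
CDK6: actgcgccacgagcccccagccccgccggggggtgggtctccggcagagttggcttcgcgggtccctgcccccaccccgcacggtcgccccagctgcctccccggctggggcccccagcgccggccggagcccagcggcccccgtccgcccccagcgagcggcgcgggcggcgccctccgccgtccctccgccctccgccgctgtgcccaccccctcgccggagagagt
The CDK4 stretch holds E-boxes at -216 and -196, and there is another at -101 outside it. In the CDK6 window of 300 bases (from -250 to +50) the only E-box is at +31, outside the stretch shown. An E-box, a sequence bound by MYC and other factors, occurred in 7.26% of the 35116 RefSeq promoter windows of that length. A match is a description of letters and not a bound site.

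Windows were given for 6 members (CCND3, CDK4, CDK6, CCNE1, CDKN1B and CDKN2C) and were searched on both strands for 4 other motifs. These were an E2F motif (TTTCCCGC, TTTCGCGC, TTTGCCGC or TTTGGCGC), AP-1 (TGANTCA), CRE (TGACGTCA) and a forkhead motif (GTAAACA). The only match was a forkhead motif at -2 of CCND3. Over all windows the shares were 3.32%, 7.71%, 1.85% and 3.42%. MYC itself was at 10.6 ± 0.317 CPM in wild-type DMSO and 9.57 ± 0.320 in wild-type JQ1 (log2 difference -0.14, adjusted p 0.352, edgeR), and at 14.9 ± 0.920 and 12.3 ± 2.00 in the knockout groups (-0.27, adjusted p 0.0601). Without replicate 3 of knockout JQ1 the latter difference was called (-0.41, adjusted p 0.00247, edgeR). MYC was higher in the knockout than in wild type under DMSO by 0.50 (SE 0.11, adjusted p 0.00835), and under JQ1 the difference was 0.37 (adjusted p 0.0515, edgeR).

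**Figure D3:**
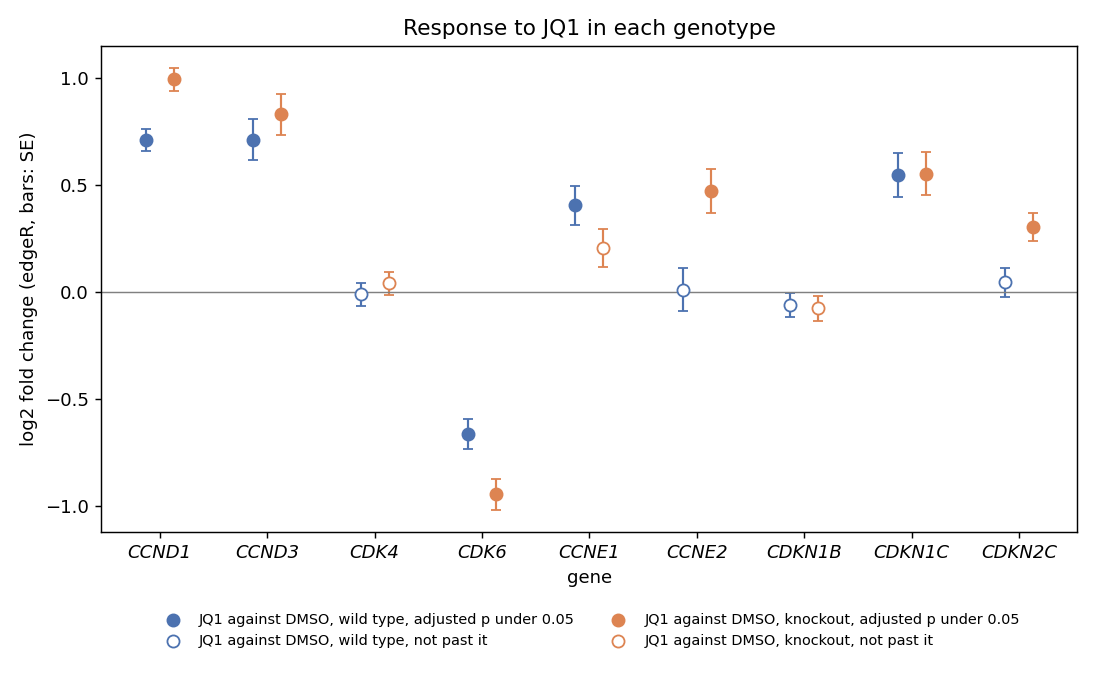
Log2 fold change with JQ1 for each tested member in wild-type (blue) and knockout (orange) cells; bars are SE from edgeR and filled points passed an adjusted p of 0.05. CCND1, CCND3 and CDKN1C are above 0 and CDK6 below 0 with filled points in both genotypes; CDK4 and CDKN1B have open points in both.

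The E-type cyclins bind CDK2 later in G1. CCNE1 (ENSG00000105173, chr19:29811898-29824308, plus strand) was at 13.6, 11.5 and 13.25 CPM in wild-type DMSO and at 16.8, 18.4 and 15.6 in wild-type JQ1. The knockout was at 15.1, 14.8 and 15.1 CPM in DMSO and at 18.35, 16.2 and 17.25 in JQ1. The wild-type JQ1 libraries were all above wild-type DMSO, and the knockout DMSO libraries lay between them.

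CCNE1 rose with JQ1 by 0.40 in wild type (SE 0.09, adjusted p 0.00299, edgeR). In knockout the difference was 0.21 (95% interval 0.01 to 0.40), which missed the threshold (adjusted p 0.0952), and again 0.21 without replicate 3 of knockout JQ1 (adjusted p 0.124). The responses themselves differed by -0.20 (adjusted p 0.712), and the knockout was 0.23 above wild type under DMSO (adjusted p 0.163, edgeR), neither of them called.

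CCNE2 (ENSG00000175305, chr8:94879770-94896678, minus strand), the paralogue of CCNE1, was at 18.5, 18.8 and 18.5 CPM in wild-type DMSO and at 18.3, 17.9 and 19.97 in wild-type JQ1. Its knockout values were 17.3, 13.6 and 13.9 CPM in DMSO and 22.5, 21.3 and 18.5 in JQ1. The wild-type groups overlapped, whereas each knockout DMSO library was below all the others. CCNE2 overlaps INTS8 on the opposite strand, which had 897 to 1408 counts per library against 395 to 675 for CCNE2.

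JQ1 raised CCNE2 in knockout cells by 0.47 (SE 0.10, adjusted p 0.00218), and by 0.55 without replicate 3 of knockout JQ1. In wild type the difference was 0.01 (95% interval -0.20 to 0.22, adjusted p 0.951, edgeR). The difference of the responses, 0.46 (SE 0.14), was not called (adjusted p 0.346). Under DMSO the knockout stood at -0.32 relative to wild type (adjusted p 0.0748, edgeR). That value was -0.43 without replicate 1 of knockout DMSO (adjusted p 0.0214) and -0.32 without replicate 3 of knockout JQ1 (adjusted p 0.0289).

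Per kilobase the E-type cyclins were at similar levels, CCNE1 at 6.25 ± 0.552 and CCNE2 at 5.59 ± 0.0579 CPM in wild-type DMSO (SD, n = 3). In wild type CCNE1 made up 52.7% ± 2.52 of the pair with DMSO and 59.5% ± 3.34 with JQ1, and in the knockout 62.2% ± 3.03 and 57.6% ± 2.51. Relative to wild-type DMSO, the CCNE1 to CCNE2 ratio was 1.32 in wild-type JQ1 and 1.48 in knockout DMSO, each without overlap (two-sided exact permutation test, p = 0.1, adjusted 0.171). Those comparisons share the wild-type DMSO libraries.

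The inhibitors did not move together. CDKN1C (p57; ENSG00000129757, chr11:2883213-2885773, minus strand) was at 11.1, 11.1 and 12.2 CPM in wild-type DMSO and at 16.4, 17.9 and 16.1 in wild-type JQ1. The knockout values were 11.99, 12.6 and 11.9 CPM in DMSO and 15.4, 17.6 and 20.5 in JQ1. Every JQ1 library was above every DMSO library, and within each treatment the genotypes overlapped.

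CDKN1C rose with JQ1 by 0.55 in both genotypes (SE 0.10 each; adjusted p 7.37e-04 in wild type and 6.22e-04 in knockout, edgeR). Without replicate 3 of knockout JQ1, the highest library of the 12, the rise in knockout was 0.44. The difference of the responses was 0.01, with a 95% interval from -0.30 to 0.31.

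CDKN1B (p27; ENSG00000111276, chr12:12715058-12722371, plus strand) varied little. Wild-type libraries were at 79.1, 78.3 and 76.5 CPM in DMSO and at 73.5, 76.8 and 74.1 in JQ1. Knockout libraries were at 77.6, 74.7 and 71.9 CPM in DMSO and at 73.7, 66.75 and 72.05 in JQ1. In each of the 4 comparisons between groups the libraries overlapped. The log2 difference with JQ1 was -0.06 in wild type (95% interval -0.18 to 0.06, adjusted p 0.457) and -0.08 in knockout (-0.20 to 0.04, adjusted p 0.327, edgeR), or -0.09 without replicate 3 of knockout JQ1. With library totals alone it was -0.19 in each (adjusted p 0.0132 and 0.0115). AC008115.3, a transcript on the same strand inside CDKN1B, had 87 to 168 counts per library against 1645 to 2784 for CDKN1B.

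CDKN2C (p18; ENSG00000123080, chr1:50960745-50974633, plus strand) was the INK4 inhibitor of the set, and it was lowest in knockout DMSO. It was at 44.0, 43.1 and 44.7 CPM in wild-type DMSO and at 46.9, 44.9 and 44.2 in wild-type JQ1. Knockout libraries had 37.03, 36.6 and 37.7 CPM in DMSO and 44.25, 42.6 and 50.4 in JQ1. The other 3 groups overlapped one another, and the knockout DMSO libraries lay below them all.

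CDKN2C rose with JQ1 in knockout by 0.30 (SE 0.07, adjusted p 0.00263) and by 0.23 without replicate 3 of knockout JQ1, its highest library. In wild type the difference was 0.05 (95% interval -0.10 to 0.19, adjusted p 0.653, edgeR), and the difference of the responses, 0.26, was not called (adjusted p 0.466). Under DMSO the knockout was lower by -0.24 (SE 0.07, adjusted p 0.0373). That call was lost when any 1 of the 6 DMSO libraries, or replicate 1 or 2 of wild-type JQ1, was left out (adjusted p 0.0539 to 0.142), though the difference stayed between -0.25 and -0.22.

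The sequence before the CDKN2C start is shown because this transcript was called between genotypes under DMSO. Its GC content was 45.6% over 250 bases, beside 82.1% in the CDK6 stretch. It is chr1:50960495-50960744 (RefSeq, GRCh38.p14, plus strand, positions -250 to -1), contains no annotated exon, and has its single E-box, in capitals, at -220.
CDKN2C: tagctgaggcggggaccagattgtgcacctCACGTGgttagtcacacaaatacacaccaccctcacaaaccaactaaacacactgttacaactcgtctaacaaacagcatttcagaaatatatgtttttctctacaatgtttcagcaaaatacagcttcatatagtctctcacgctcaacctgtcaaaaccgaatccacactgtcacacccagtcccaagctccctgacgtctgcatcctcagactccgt

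Across the inhibitors, levels per kilobase in wild-type DMSO were 29.4 ± 0.497 CPM for CDKN1B, 15.1 ± 0.287 for CDKN2C and 5.93 ± 0.337 for CDKN1C (SD, n = 3). In knockout JQ1 they were 26.7 ± 1.37, 15.8 ± 1.42 and 9.21 ± 1.32 in the same order. CDKN1C, which rose with JQ1 in both genotypes, was thus the least abundant of the 3 in both groups.

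The loss of MAPKAPK2 was compared within each treatment. Under DMSO 2 of the 9 tested members were called, CCND1 and CDKN2C, both lower in the knockout, beside 7.92% of all tested genes. The median of the 9 was -0.06, and over all genes it was -0.0049. This comparison shares the wild-type DMSO libraries with the JQ1 response of wild type, and the knockout DMSO libraries with that of the knockout. Under JQ1 edgeR called 0 of the 9, beside 8.57% of all genes. An unadjusted edgeR p under 0.05 was found for 1 member (CDK6), beside 4484 of the 21698 genes. DESeq2, limma-voom and limma on the authors' signal also called 0 members.

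For the difference of the JQ1 responses edgeR called 0 of 9 members, beside 0.134% of all genes (29 genes). At an unadjusted p under 0.05 there were 4 members, CCND1, CCNE2, CDK6 and CDKN2C, beside 1817 of the 21698 genes. DESeq2 called 1 (CCND1), while limma-voom and limma on the authors' signal called 0.

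**Figure D4:**
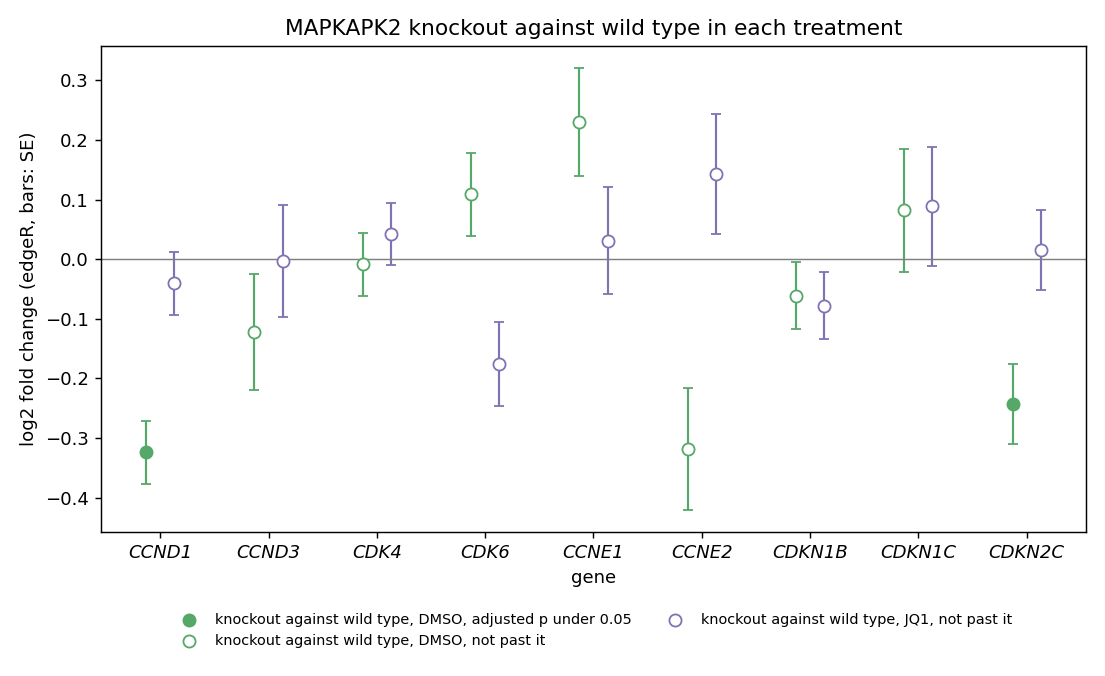
Log2 fold change of knockout against wild type for each tested member under DMSO (green) and under JQ1 (purple); bars are SE from edgeR, and filled points passed an adjusted p of 0.05. The 2 filled points are CCND1 and CDKN2C under DMSO, both below 0, and all 9 points under JQ1 are open.

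The rest of the G1/S machinery was described with a list of 35 other genes, of which 34 were tested. With JQ1 19 were called in wild type (10 higher, 9 lower) and 21 in knockout (10 higher, 11 lower), beside 33.1% and 34.4% of all tested genes. The medians were -0.04 and -0.02. CDK2, the partner of the E-type cyclins, rose by 0.51 (SE 0.05, adjusted p 2.17e-06) in wild type and 0.53 (SE 0.05, adjusted p 1.26e-06) in knockout by edgeR, from 90.5 ± 0.825 to 128.5 ± 1.07 CPM and from 86.5 ± 1.98 to 124.7 ± 4.47 CPM.

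Among the other inhibitors, CDKN1A (p21) was at 57.7, 55.8 and 59.5 CPM in wild-type DMSO and at 148.3, 155.2 and 142.1 in wild-type JQ1. In the knockout it was at 82.4, 82.03 and 87.8 CPM with DMSO and at 166.3, 164.9 and 186.2 with JQ1. The 4 groups did not overlap. CDKN1A rose with JQ1 by 1.36 (SE 0.06, adjusted p 1.55e-09) in wild type and 1.04 (SE 0.06, adjusted p 1.30e-08) in knockout by edgeR. It was higher in the knockout by 0.54 under DMSO (adjusted p 5.47e-05) and 0.22 under JQ1 (adjusted p 0.0405, edgeR). The call under JQ1 was lost in 10 of 23 alternatives, among them library totals and leaving out any 1 wild-type JQ1 library.

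The INK4 gene CDKN2D (p19) rose by 0.91 (adjusted p 4.67e-06) and 1.03 (adjusted p 1.58e-06) with JQ1 by edgeR. CDKN2A (p16 and p14ARF) was at 2.20 to 3.59 CPM in the group means and was called only for JQ1 in knockout, -0.70 (SE 0.18, adjusted p 0.00648); its response there minus that in wild type was -0.65 (adjusted p 0.488). CDKN2B (p15) had too few counts to be tested, at most 3 in a library.

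Of the 3 retinoblastoma family genes, 2 were called lower with JQ1 in wild type and 1 in knockout, beside calls for 33.1% and 34.4% of all tested genes. RBL1 and RBL2 are named here after their values were seen. RBL2 (p130) fell by 0.22 (adjusted p 0.0134) in wild type and by 0.41 (adjusted p 1.29e-04) in knockout by edgeR. RBL1 (p107) fell by 0.25 in wild type (adjusted p 0.0445) and was at -0.22 in knockout (adjusted p 0.0777). The wild-type calls were lost in 3 (RBL2) and 14 (RBL1) of 23 alternatives, for RBL2 without replicate 1 or 3 of wild-type DMSO or replicate 1 of wild-type JQ1, for RBL1 without any 1 of the 6 wild-type libraries, among others. RB1 was not called (0.14, adjusted p 0.181, and 0.20, adjusted p 0.0554, edgeR), though in knockout it was without replicate 3 of knockout JQ1 (0.30, adjusted p 3.24e-04). Of the 10 E2F factors and partners, 2 were higher and 3 lower in wild type, and 2 higher and 4 lower in knockout. The shares called of all tested genes were again 33.1% and 34.4%. E2F1, an activator of S-phase genes, rose by 0.34 (adjusted p 0.0132) in wild type and 0.65 (adjusted p 1.04e-04, edgeR) in knockout. The latter was 0.50 without replicate 3 of knockout JQ1. With library totals the wild-type call of E2F1 was lost (adjusted p 0.0754, edgeR). E2F2, by contrast, fell by 1.01 (adjusted p 2.46e-05) in wild type and 0.88 (adjusted p 9.15e-05, edgeR) in knockout. The log2 difference of E2F8 with JQ1 was -0.48 (adjusted p 0.00107) in wild type and -0.65 (adjusted p 8.62e-05, edgeR) in knockout.

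SKP2, which marks CDKN1B protein for degradation, fell by 0.55 (adjusted p 5.37e-06) in wild type and 0.45 (adjusted p 3.03e-05) in knockout. FOXO3, a forkhead activator of CDKN1B, fell by 0.47 (adjusted p 3.48e-05) and 0.57 (adjusted p 4.74e-06, edgeR). CDKN1B transcripts themselves, described above, were not called in either genotype. Protein was not measured.

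Between genotypes 4 of the 34 were called under DMSO and 4 under JQ1, which is 11.8% in each, beside 7.92% and 8.57% of all tested genes. Under DMSO CDKN1A and E2F5 were higher (E2F5 by 0.31, adjusted p 0.0424) and FBXO4 and E2F7 lower (-0.50, adjusted p 0.0231, and -0.25, adjusted p 0.0265, edgeR). Under JQ1 CDC25A (0.25, adjusted p 0.0162) and CDKN1A were higher, and FOXO1 (-0.35, adjusted p 0.0130) and FBXO4 (-0.51, adjusted p 0.0364) lower. The count under DMSO was 8 without replicate 3 of knockout JQ1. It was 1, CDKN1A alone, without replicate 1 or 2 of wild-type DMSO or replicate 2 or 3 of knockout DMSO, and 2 without the remaining library of either group. E2F5 lost its call whenever any 1 of the 6 DMSO libraries was left out. Under JQ1 the count was 2 without replicate 1 of wild-type JQ1, of wild-type DMSO or of knockout JQ1, or replicate 3 of wild-type DMSO, and 1 (FOXO1) without replicate 2 or 3 of wild-type JQ1. Without replicate 3 of knockout JQ1 the calls of CDKN1A (0.16, adjusted p 0.0723) and FBXO4 (-0.51, adjusted p 0.0611, edgeR) under JQ1 were lost. Over 23 alternatives the calls under JQ1 were lost in 14 (FBXO4), 10 (CDKN1A), 5 (CDC25A) and 2 (FOXO1). For the difference of the responses edgeR called 0 of 34, beside 0.134% of all tested genes. An unadjusted edgeR p under 0.05 was found for 5 of the 34, beside 1817 of the 21698 genes. DESeq2 called 1 of the 34, CDKN1A, with the smaller rise in the knockout. Without replicate 3 of knockout JQ1 edgeR called the same gene in the same direction.

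**Figure D5:**
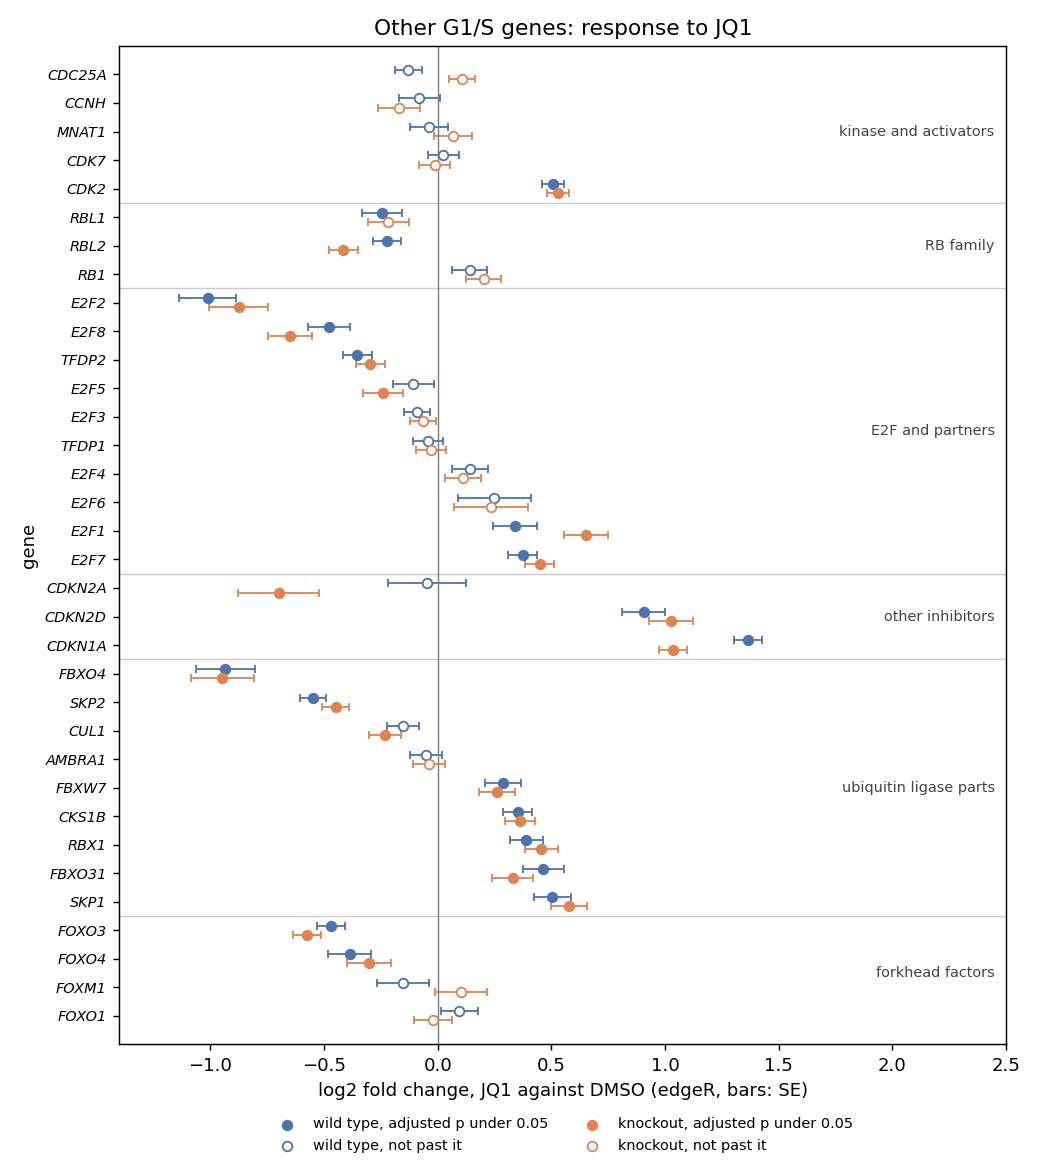
Log2 fold change with JQ1 for the 34 tested genes of the wider G1/S list, grouped by role, in wild type (blue) and knockout (orange); bars are SE from edgeR and filled points passed an adjusted p of 0.05. CDKN1A and CDKN2D lie farthest to the right and E2F2 and FBXO4 farthest to the left.

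The S-phase genes that E2F factors drive were mixed. Of 18, 9 were called with JQ1 in wild type (5 higher, 4 lower) and 9 in knockout (6 higher, 3 lower), beside 33.1% and 34.4% of all tested genes. TK1 (thymidine kinase) rose by 0.62 in wild type (adjusted p 2.46e-06) and RRM2 (a ribonucleotide reductase subunit) by 0.61 in knockout (adjusted p 5.09e-07), while MCM5, a helicase subunit, fell by 0.35 (adjusted p 7.08e-04) and 0.31 (adjusted p 0.00178, edgeR). Between genotypes 2 were called under DMSO, both lower in the knockout, and 3 under JQ1, beside 7.92% and 8.57% of all tested genes. MCM4 was lower in both, by -0.61 (adjusted p 9.09e-07) and -0.54 (adjusted p 2.60e-06, edgeR). TYMS was higher in the knockout under JQ1 by 0.21 (adjusted p 0.0310, edgeR), a call lost in 8 of 23 alternatives.

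Of 10 proliferation genes, 4 were called with JQ1 in wild type (1 higher, 3 lower) and 5 in knockout (2 higher, 3 lower), or 40% and 50% beside 33.1% and 34.4% of all tested genes. MKI67 fell by 0.28 (adjusted p 0.00275) and 0.35 (adjusted p 5.23e-04), and CDC20 rose by 0.38 (adjusted p 0.00126) and 0.27 (adjusted p 0.0108, edgeR). The CDC20 call in knockout was lost without replicate 1 of knockout DMSO. Under DMSO edgeR called 0 of the 10 between genotypes, beside 7.92% of all tested genes. An unadjusted edgeR p under 0.05 was found for 4 of the 10, beside 4274 of the 21698 genes. Under JQ1 MKI67 was lower in the knockout (-0.25, adjusted p 0.0240), a call lost without any 1 of the wild-type JQ1 libraries or replicate 1 of knockout JQ1. In bulk RNA a change in the share of cells in a phase cannot be told apart from a change per cell.

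The genes closest to the 3 members with the smallest adjusted p for JQ1 in wild type were found over the 12 libraries. Likeness was the root mean square difference of log2 CPM, centred on each gene's own mean, among 11251 genes of at least 5 CPM. UXS1 was closest to CCND1 at 0.07, followed by CREB3L2 and KIAA1549L. ZNF300 was closest to CDK6 at 0.05, followed by TOM1L1 and TPD52L1. TNFRSF12A was closest to CCND3 at 0.05, followed by SFXN5 and INAFM2. For scale, the members' own spread about their mean was 0.44, 0.42 and 0.40.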

How the data were processed

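RNA of 12 A375 libraries (ribosomal RNA depleted, directional kit, per the labels' protocols) was analysed. The authors deposited estimated counts per gene symbol, and a normalized signal in which each rounded count is divided by a factor per gene and library. The submitters' processing notes name Trim Galore, cutadapt, FastQC, MultiQC, kallisto, DESeq2 and the build GRCh38.p10; their settings, the annotation and the use of strand are not given in the sources used here.

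The test was planned for raw counts, so the estimated counts were rounded. Genes passed edgeR's filterByExpr, libraries were scaled with TMM, and 1 quasi-likelihood model with a term per group was fitted to the 12 libraries (edgeR 4.0.16, limma 3.58.1, DESeq2 1.42.0, R 4.3.3). Adjustment was by the Benjamini-Hochberg method across all 21698 genes. SE is the log2 fold change over the square root of F. The script was tested on simulated counts. Coordinates and lengths came from GENCODE release 29 (GRCh38). Promoter windows came from RefSeq by symbol.

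The members, lists and motifs were chosen with earlier results of these data known. Besides members, the text names 8 fixed genes and, per contrast, up to 3 higher and 3 lower genes of the wider G1/S list and 1 each of the S-phase and proliferation lists, by smallest adjusted p. Same-numbered replicates did not pair. Alternatives included other scalings, filters and tools, and leaving out each library.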

Additional observations from a re-analysis of the deposited data

How the results depend on the processing

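Of 45 log2 fold changes of members, 13 were called, and 12 of them kept call and direction in every alternative run; the exception was CDKN2C in the knockout under DMSO. Of the 32 not called, 6 passed the threshold in some alternative, named where they stand in the report or here: CCNE2 in the knockout under DMSO was -0.37 (adjusted p 0.0498) with library totals and -0.33 (0.0494) with a filter at 5 CPM, by edgeR. Under JQ1 the members called stayed between 5 and 7 in wild type and between 6 and 7 in knockout, 7 being with library totals. For knockout against wild type under DMSO the count of 2 became 1 at a threshold of 0.01, with DESeq2 size factors, with no low-count filter and with the replicate block, and ranged from 1 to 3 with a library left out. For the difference of the responses DESeq2 called 1. The replicate block changed no other member call. Of the other genes named, under the block E2F5 between genotypes under DMSO and CDKN1A and FBXO4 under JQ1 lost their calls (adjusted p 0.0691, 0.0632 and 0.0663, edgeR). Replicate numbers did not pair the libraries: 4 of 18 same-numbered pairs had deviations correlated above 0.1 (from -0.486 to 0.374), and 2 of 12 libraries correlated best with their own number. CDKN2C in the knockout under DMSO had adjusted p 0.0520 with DESeq2 size factors, 0.0914 with no filter, 0.0535 with the block and 0.0824 on the authors' signal (limma, pseudocount 1). Using the authors' factors as edgeR offsets, chosen after seeing the data, gave 0.0775 for it and 0.018 for CDK6 (log2 0.23), and CDK6 fell by 0.51 with JQ1 in wild type. Signs changed only for members that were not called. With DESeq2 size factors and DESeq2's test, CCND3 under JQ1 between genotypes was 0.0028 in both (0.002 at 5 CPM), CDK4 with JQ1 in wild type 0.0024 in both, CDK4 between genotypes under DMSO 0.0069 and 0.0067, and CDKN1C in the difference of responses -0.0024 and -0.001. With no filter CDK4 with JQ1 in wild type was 2e-04 and CDKN1C in the difference -0.0111; with only the groups compared that CDK4 value was 0.0076, and with the replicate block that CDKN1C value was -0.0012. On the authors' signal and with their factors, CDK4 was 0.0041 and 0.0038 with JQ1 in wild type and 0.0055 and 0.006 between genotypes under DMSO, and CCNE2 with JQ1 in wild type -0.0044 and -0.0013. With library totals CDK4 with JQ1 in knockout was -0.0759, CCNE2 and CDKN2C with JQ1 in wild type -0.1177 and -0.0841, and CCNE1 and CDKN2C between genotypes under JQ1 -0.0016 and -0.0191. At 5 CPM, CCNE2 and CDKN2C with JQ1 in wild type were -0.04 and -0.0061 and CDKN1B in the difference 0.0027. With 1 library left out, ranges that crossed 0 were -0.0979 to 0.086 (CCND3), -0.0263 to 0.096 (CCNE1), -0.0266 to 0.1843 (CDKN1C) and -0.0621 to 0.0638 (CDKN2C) between genotypes under JQ1. They were -0.0267 to 0.0167 (CDK4) and -0.0361 to 0.0424 (CCNE2) with JQ1 in wild type, -0.0323 to 0.0334 (CDK4) between genotypes under DMSO, and -0.0469 to 0.0236 (CDKN1B) and -0.1088 to 0.1016 (CDKN1C) in the difference. The cause was not tested. Over all genes, a threshold of 0.01 left 4781 calls for JQ1 in wild type, 926 and 965 between genotypes under DMSO and JQ1, and 6 for the difference. With only the groups compared, which could not be run for the difference, the genotype counts were 2619 and 922. DESeq2 called 139 genes for the difference and 236 were called with no filter; with 1 library left out it ranged from 8 to 88, and between genotypes under DMSO from 1092 to 2650, the highest of each without replicate 3 of knockout JQ1. Of the 34 other G1/S genes, calls between genotypes ranged from 1 to 8 under DMSO. Under JQ1 they ranged from 0 to 4, with 0 at a threshold of 0.01 and with only the groups compared. With library totals 30.8% of the genes called between genotypes under DMSO were higher, in place of 754 of 1718.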
